A study of Mus musculus with 2 samples.

Results

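Mir144 and Mir451a are neighbouring microRNA (miRNA) hairpin genes of 1 red blood cell locus on mouse chromosome 11, and Mir486 is a hairpin gene on chromosome 8 that red blood cells and muscle both use. Their opposite-strand partners are Mir451b and Mir3107. These 5 genes, chosen by their symbols in GENCODE M21, were followed among the 2202 miRNA genes listed for each library. The libraries are microRNA sequencing of left cerebral cortex (total RNA) from mice aged 10 days, with inserts of a labelled size below 30. The animals were males of B6CASTF1/J, a first-generation cross of the B6 and CAST strains. The labels give 1 group of 2 biological replicates, male 3 (replicate 1) and male 4 (replicate 2), with no treatment, no other genotype and no control group. Values are therefore compared between 2 libraries and not between conditions, and each library stands for 1 tissue specimen.

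miRNAs are cut from hairpin precursors and guide Argonaute proteins to messenger RNAs that match their seed, the bases near the 5′ end. miR-144 and miR-451a are made from 1 primary transcript that the erythroid factor GATA1 switches on as red cells mature. miR-144 follows the usual route through Dicer, whereas the short miR-451a hairpin bypasses Dicer and is cut by the Argonaute protein Ago2. In mice, loss of this locus leaves red cells sensitive to oxidant stress. miR-486 is made from an intron of Ank1, the gene of the red cell membrane protein ankyrin-1, and it is also known as a muscle miRNA. Mature red cells, which have no nucleus, still carry these small RNAs.

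RefSeq sequences (GRCm38.p6) were at hand for 3 of the 5 genes, Mir144, Mir451a and Mir451b. The mature sequences are shown because the counts rest on them, with the seed (bases 2 to 8) in capitals.
mmu-miR-144-5p: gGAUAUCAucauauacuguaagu
mmu-miR-144-3p: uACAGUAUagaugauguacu
mmu-miR-451a: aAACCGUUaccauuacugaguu
mmu-miR-451b: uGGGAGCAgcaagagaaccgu
The 4 seeds differ from each other, and none is shared with another of the 1738 mature mouse sequences in the table. Bases 2 to 7 of miR-144-3p also occur in 1 other miRNA, mmu-miR-101a-3p (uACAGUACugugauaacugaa), which is known to be widely expressed, and no other mature sequence shares bases 2 to 7 with miR-144-5p, miR-451a or miR-451b.

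Mir451a and Mir451b cover the same 72 bases of chromosome 11 on opposite strands (78073170 to 78073241, mm10), so each hairpin is the reverse complement of the other. Both are printed because a count for either depends on which strand a read is given to. Capitals mark the mature sequence.
Mir451a (plus strand): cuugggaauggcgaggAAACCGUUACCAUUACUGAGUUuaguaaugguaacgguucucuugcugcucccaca
Mir451b (minus strand): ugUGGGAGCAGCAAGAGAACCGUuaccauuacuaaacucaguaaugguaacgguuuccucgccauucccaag
Mature miR-451a lies in the 5′ arm at bases 17 to 38 of its hairpin and runs into the loop. Since the stem is nearly self-complementary, bases 2 to 17 of miR-451a are found again on the other strand. That stretch of 16 bases is in capitals here.
mmu-miR-451a: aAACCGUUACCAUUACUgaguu
A stretch of miR-451a longer than these 16 bases has no exact match on the minus strand. No hairpin of another locus in the table of 1005 hairpins shared more than 10 consecutive bases of its own strand with miR-451a or miR-144-3p. For miR-144-5p the longest such stretch was 9 bases. The opposite strands of those hairpins were not searched for partial stretches. Reads with several mapping places are left out of every gene count. The full mature sequences of miR-451a and miR-144 had no exact match in any other hairpin of the table on either strand, apart from the opposite strand of Mir451b.

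Mir144 lies upstream of Mir451a on the plus strand, at 78073005 to 78073070, with 99 bases between the hairpins and 237 bases from the start of the first to the end of the second. Its hairpin holds both arms of miR-144, in capitals here.
Mir144 (plus strand): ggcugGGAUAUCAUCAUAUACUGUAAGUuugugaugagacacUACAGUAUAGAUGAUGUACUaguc
No host gene is annotated over the 2 hairpins in GENCODE M21. The nearest other genes are Eral1, on the minus strand 134 bases beyond Mir451a, and Flot2, on the plus strand 12570 bases before Mir144. Mir486 lies on chromosome 8 at 23142555 to 23142682 (plus strand), in an intron of Ank1 on the same strand and of Gm15816 on the opposite one. Mir3107, at 23142573 to 23142662 on the minus strand, lies wholly inside the span of Mir486.

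In these libraries Mir451a was the member that differed most. It had 1973 sense reads in replicate 1 and 36 in replicate 2, which is 737 and 20.6 CPM (sense reads per 1000000 sense reads assigned to miRNA genes). The 95% counting intervals were 705 to 770 CPM in replicate 1 and 14.4 to 28.5 CPM in replicate 2, so they are far apart, and they cover counting error only, since reads copied by PCR are not independent molecules. Mir451a was the 124th most abundant gene of replicate 1 and the 293rd of replicate 2. Its mean of 379 CPM had an SD of 506 CPM (n = 2), larger than the mean itself, so the mean describes neither library. The genes next to it by mean level were Mirlet7a-1, at 408 ± 2.55 CPM, and Mir130b, at 377 ± 69.8 CPM (SD, n = 2), and its spread spans both. Mirlet7a-1 has a further copy that makes the same mature miRNA. Reads matching both copies are counted for neither, so its count is not the level of let-7a.

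Mir144, the canonical hairpin of the locus, had 140 reads in replicate 1 and 18 in replicate 2. This is 52.3 CPM (43.98 to 61.7) in replicate 1 and 10.3 CPM (6.10 to 16.3) in replicate 2, higher in replicate 1 like Mir451a and with intervals that do not overlap. Mir144 averaged 31.3 ± 29.7 CPM (SD, n = 2), between Mir7047 (31.4 ± 3.16 CPM) and Mir3064 (30.97 ± 6.30 CPM), and none of these 3 differs beyond its spread. A count per hairpin adds both arms, so miR-144-5p and miR-144-3p were not told apart.

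Mir486, the hairpin in the red cell gene Ank1, had 68 reads in replicate 1 and 45 in replicate 2. Its levels were 25.4 CPM (19.7 to 32.2) in replicate 1 and 25.7 CPM (18.8 to 34.4) in replicate 2, and the intervals overlap almost wholly. It averaged 25.6 ± 0.226 CPM (SD, n = 2), between Mir217 (25.97 ± 19.8 CPM) and Mir200c (25.4 ± 6.89 CPM). No sequence of Mir486 or its partner Mir3107 was at hand. Whether mature reads of Mir486 also match the opposite strand, and so go uncounted, was therefore not checked. These levels are of counted reads and may fall short of the level of miR-486. In replicate 1 the 3 counted hairpins ranked Mir451a, Mir144, Mir486, with no overlap of their intervals. In replicate 2 Mir486 and Mir451a had overlapping intervals, as did Mir451a and Mir144, while that of Mir486 lay above that of Mir144.

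The partners on the other strand were at or near 0. Mir451b had 0 sense reads in both libraries, where 3 reads would be 1.12 CPM in replicate 1 and 1.71 CPM in replicate 2. Against the 1973 reads of Mir451a in replicate 1, a count of 0 allows at most 0.152% as many from Mir451b, and against the 36 reads of replicate 2 at most 8.33%. Mir3107 had 2 reads in replicate 1 and 3 in replicate 2, or 0.747 and 1.71 CPM, and did not reach the detection minimum of 2 CPM in either library. Of the 5 members, 3 reached 2 CPM in both libraries, as did 442 of all 2202 genes.

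**Figure D1:**
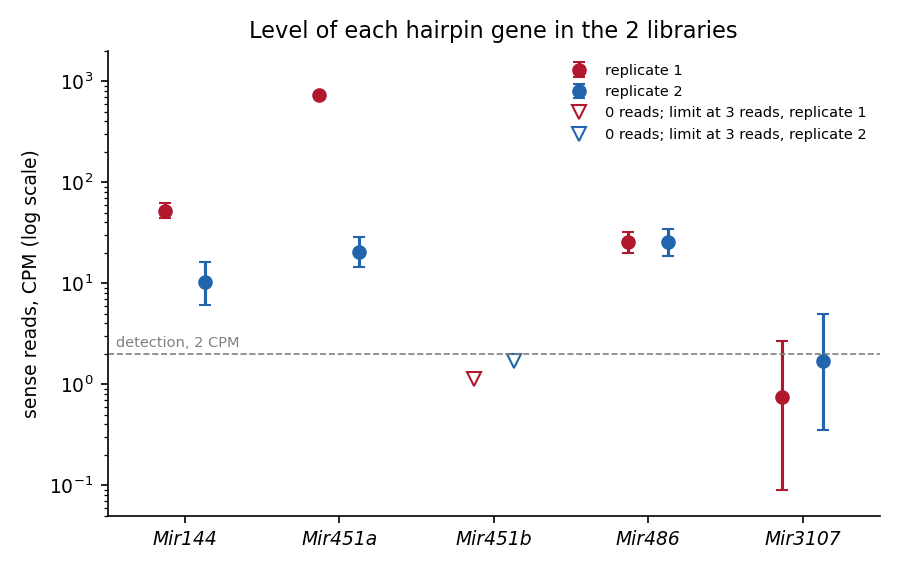
Level of each member in CPM of sense reads (log axis) in replicate 1 (left point of each pair) and replicate 2 (right point), with 95% Poisson counting intervals as bars; open triangles mark the level of 3 reads for Mir451b, which had 0 reads. Mir451a stands at 737 CPM in replicate 1 and 20.6 CPM in replicate 2, while Mir486 lies near 25 CPM in both.

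The 3 deposited count columns treat the locus very differently. Column 3 counts reads on the strand of the gene, column 4 reads on the opposite strand and column 2 reads without regard to strand. For Mir451a the unstranded column held 0 reads in both libraries, although the sense column held 1973 reads in replicate 1 and 36 in replicate 2. The same 1973 and 36 reads appear as antisense reads of Mir451b. Mir451a itself had 0 antisense reads in each library, so every strand-assigned read of these 72 bases was on the plus strand.

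Mir486 and Mir3107 gave the same mirror image. Mir486 had 68 sense and 2 antisense reads in replicate 1, and 45 sense and 3 antisense reads in replicate 2. Mir3107 had 2 sense and 68 antisense reads in replicate 1, and 3 sense and 45 antisense reads in replicate 2. The plus strand thus held 97.1% of the pair's counted reads in replicate 1 (exact 95% interval 90.1% to 99.7%). In replicate 2 it held 93.75% (82.8% to 98.7%), and the shares do not differ beyond counting error. Reads that match both strands would be counted for neither gene, and whether mature reads do so was not checked. These shares are therefore not the strand shares of miR-486. Both genes had 0 unstranded reads. Mir144, which no miRNA gene overlaps, had 140 and 18 reads in the unstranded column as in the sense column, and 0 antisense reads.

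**Figure D2:**
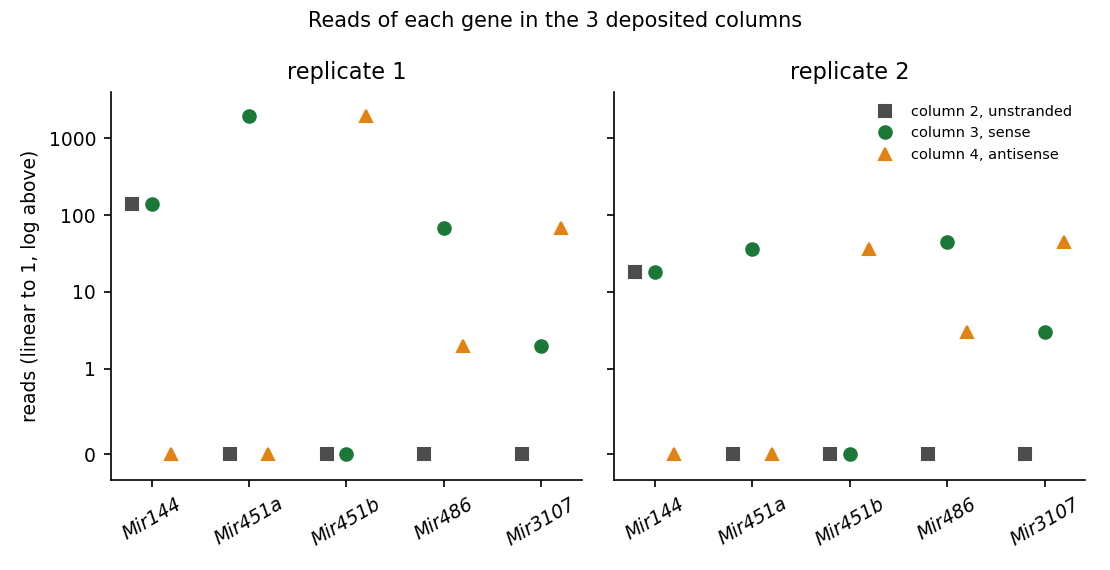
Reads of each member in the deposited unstranded (squares), sense (circles) and antisense (triangles) columns, on an axis that is linear up to 1 and logarithmic above, with replicate 1 in the left panel and replicate 2 in the right. Mir144 has equal unstranded and sense reads, while the other 4 members have 0 unstranded reads and the sense reads of one partner are the antisense reads of the other.

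This pattern was not particular to the locus. GENCODE M21 places 32 pairs of listed miRNA genes on opposite strands of overlapping spans. In replicate 1, 29 pairs had sense reads, and 26 of them had 0 unstranded reads. In replicate 2, 29 pairs had sense reads and 27 had 0 unstranded reads. The unstranded column kept 23 of 180978 sense reads of such genes in replicate 1 and 19 of 108963 in replicate 2. The remainder equals the ambiguous reads set apart in that column, 180955 in replicate 1 and 108944 in replicate 2. The 2 member pairs made up 1.13% of those ambiguous reads in replicate 1 and 0.0771% in replicate 2. Among the 2138 genes without such a partner, unstranded reads equalled sense plus antisense reads for all 669 genes with reads in replicate 1 and all 616 in replicate 2.

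Set against all genes, the chromosome 11 locus was at the edge of the differences between the libraries. The log2 ratio of CPM, taken as replicate 1 over replicate 2 after adding 0.5 reads to every count, was 5.14 for Mir451a (95% counting interval 4.69 to 5.68). Without the added reads, its CPM in replicate 1 was 35.8 times that in replicate 2, with an interval of 25.8 to 51.3. Mir451a had, of the 542 genes that reached 2 CPM in at least 1 library (the tested genes), the largest log2 ratio in either direction. Mir144 had a log2 ratio of 2.31 (1.63 to 3.14). Without the added reads, its CPM was 5.08 times higher in replicate 1 (3.10 to 8.83). Of the 542 genes, 35 (6.46%) were at least as far apart as Mir144, itself included. Mir486 had a log2 ratio of -0.02 (-0.58 to 0.56), and 520 of the 542 genes were at least as far apart.

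Thus 2 of the 3 members at 2 CPM or more were at least 2-fold higher in replicate 1, and none was lower. Among all 542 genes, 25.3% were at least 2-fold apart, 13.3% being higher and 12.0% lower in replicate 1. The median log2 ratio of these genes was 0.09 and the median of its size 0.46. Mir451a and Mir144 come from 1 primary transcript and are not separate observations. With 1 library per animal, differences between animals, dissections and library preparations cannot be told apart, and no p-value is given. Fewer cells of a type and less RNA per cell cannot be told apart in such tissue samples either.

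**Figure D3:**
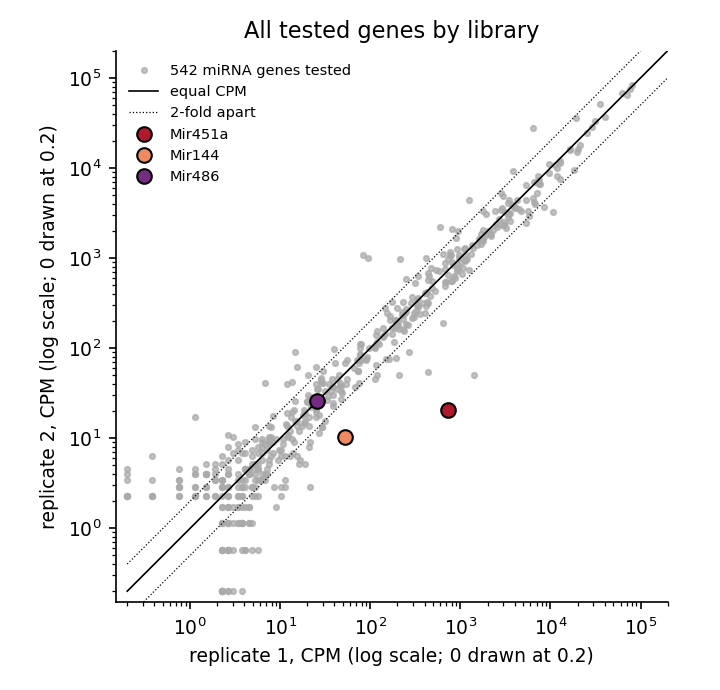
CPM of sense reads in replicate 1 (horizontal log axis) against replicate 2 (vertical log axis) for the 542 tested genes, with lines for equal CPM and for 2-fold differences. Mir451a lies farthest from the line of equal CPM toward replicate 1, Mir144 lies outside the 2-fold lines on the same side, and Mir486 lies on the line of equal CPM.

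The 2 hairpins of the locus did not differ by the same factor. Mir451a had 14.1 reads for each read of Mir144 in replicate 1 (exact 95% interval 11.9 to 16.9), against 2.00 in replicate 2 (1.11 to 3.74). The ratio was 7.05 times higher in replicate 1 (exact conditional interval 3.66 to 13.1). This comparison uses no library total. Together the 2 hairpins held 2113 reads in replicate 1 and 54 in replicate 2, or 0.0789% and 0.00309% of sense reads, and Mir451a made up 93.4% of them in replicate 1 and 66.7% in replicate 2.

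Set against Mir486, both hairpins stood higher in replicate 1. Mir451a had 29.0 reads per read of Mir486 in replicate 1 (22.8 to 37.5) and 0.800 in replicate 2 (0.501 to 1.27). Mir144 had 2.06 reads per read of Mir486 in replicate 1 (1.53 to 2.79) and 0.400 in replicate 2 (0.218 to 0.705). The ratio Mir144 over Mir486 was thus 5.15 times higher in replicate 1 (2.67 to 10.1), and Mir451a over Mir486 36.3 times higher (21.3 to 61.6). These comparisons rest on the 68 and 45 reads of Mir486, which leave out any reads with several mapping places.

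**Figure D4:**
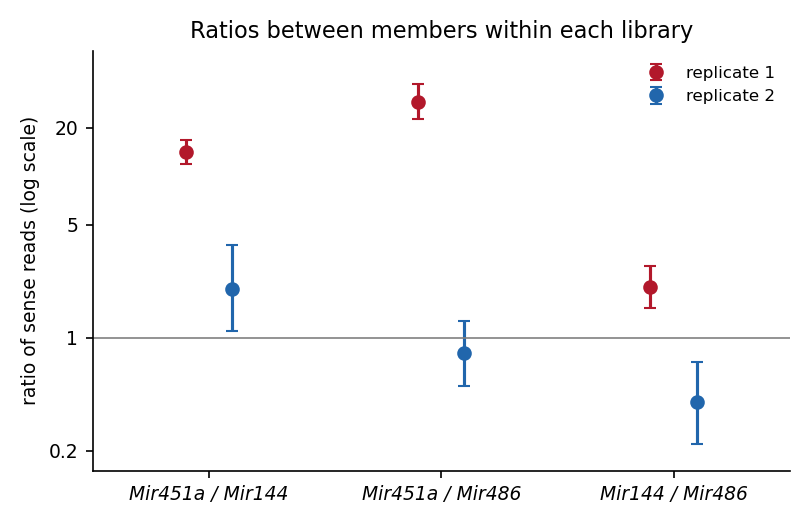
Ratios of sense reads between members (log axis) within replicate 1 (left of each pair) and replicate 2 (right), with exact 95% counting intervals as bars. The intervals of replicates 1 and 2 do not overlap for any of the 3 ratios, and Mir451a over Mir144 is 14.1 in replicate 1 and 2.00 in replicate 2.

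Few genes shared the pattern of Mir451a. By the difference of log2 ratios over the 2 libraries, the nearest among genes with a mean of 10 CPM or more was Mir301, with 3764 reads in replicate 1 and 89 in replicate 2 and a log2 ratio of 4.78 (4.49 to 5.11). The others were farther off, with 2.999 for Mir153, 2.77 for Mir344b and 2.06 for Mir148a. The nearest to Mir144 were Mir148a, Mir344b, Mir301b with 1.80 and Mir16-1 with 1.75. The nearest to Mir486, the farthest of them 0.00344 away in log2 ratio, were Mir125b-1, the muscle gene Mir499, Mir92-2 and Mir5129. Likeness over 2 libraries is a description of those libraries only. Mir101a, which shares bases 2 to 7 with miR-144-3p, was counted 515 times in replicate 1 and 137 times in replicate 2, giving a log2 ratio of 1.29 (1.02 to 1.58).

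Other miRNAs abundant in red blood cells were followed as a list. Of 18 such genes, 17 were at 2 CPM or more in both libraries. Of these, 3 were at least 2-fold higher in replicate 1 and 0 lower, where 13.3% of all tested genes were higher and 12.0% lower, and their median log2 ratio was -0.02, against 0.09 over all 542 genes. Mir191 stood at 9561 CPM in replicate 1 and 8801 CPM in replicate 2, Mir93 at 3710 and 3878 CPM, Mir22 at 2972 and 4839 CPM and Mir185 at 1364 and 1278 CPM. The 3 higher genes, named after their values were seen, were Mir16-1 and Mir16-2, which make the same mature miR-16 so that reads matching both are counted for neither, and Mir363. Mir16-1 had 1723 reads in replicate 1 and 335 in replicate 2, Mir16-2 had 317 and 88, and Mir363 had 41 and 11. Brain cells also express many of these miRNAs, so their level is not a measure of red cells.

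Mir221 and Mir222, which fall as red cells mature and are made by many other cells, were lower in replicate 1. Mir222 had 595 CPM in replicate 1 and 2238 CPM in replicate 2 (log2 ratio -1.91, -1.996 to -1.83). Mir221 had 1782 CPM in replicate 1 and 3303 CPM in replicate 2 (log2 ratio -0.89), short of 2-fold. Thus 1 of the 2 was at least 2-fold lower in replicate 1, where 12.0% of all tested genes were. The 2 genes lie close together on chromosome X and may not be separate observations.

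Among markers of other blood and vessel cells, the 9 leukocyte and platelet genes summed to 9655 CPM in replicate 1 and 9065 CPM in replicate 2, with a median log2 ratio of 0.05 over the 8 tested. Mir342, at 7129 CPM in replicate 1 and 5283 CPM in replicate 2, made up most of each sum. The sums therefore mainly give its level and are not a measure of blood cells. Among the others, Mir150, a lymphocyte miRNA, had 844 and 628 CPM, and Mir146 676 and 874 CPM. Mir21a, at 808 CPM in replicate 1 and 2106 CPM in replicate 2, was the 1 gene of the 8 at least 2-fold apart. Of all tested genes 25.3% were, and so few list genes cannot be told from that share. Mir142b was at 0. The 5 endothelial and mural genes summed to 13639 CPM in replicate 1 and 15214 CPM in replicate 2. Of the 3 tested, 0 were at least 2-fold apart, beside the same 25.3% of all tested genes. The endothelial Mir126a had 9622 CPM in replicate 1 and 11137 CPM in replicate 2, the mural Mir143 3821 and 3872 CPM and Mir145a 195 and 205 CPM, while Mir126b and Mir145b were at 0.

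Mir486 is also a muscle miRNA. The highest genes of the striated muscle list, Mir206 and Mir499, averaged 23.7 and 22.2 CPM, beside 25.6 CPM of counted reads for Mir486. Any Mir486 reads with several mapping places are left out of that count, so these levels may not be alike measures. The 10 genes of that list summed to 61.6 CPM in replicate 1 and 69.7 CPM in replicate 2, and 5 of them, Mir1a-1, Mir1a-2, Mir133a-1, Mir133a-2 and Mir133b, were at 0. Mir1a and Mir133a each have copies that make the same mature miRNA, and reads matching both copies are counted for neither, so their 0 does not show that these miRNAs were absent. Mir206 had 58 reads in replicate 1 and 45 in replicate 2, Mir499 59 and 39, Mir208a 22 and 31, and Mir208b 16 and 6. Mir1b, with 10 reads in replicate 1 and 1 in replicate 2, and Mir208a were at least 2-fold apart, in opposite directions. They were 2 of 5 tested genes, where 25.3% of all tested genes were as far apart. The counting interval of the log2 ratio of Mir1b, -0.11 to 8.15, includes 0.

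**Figure D5:**
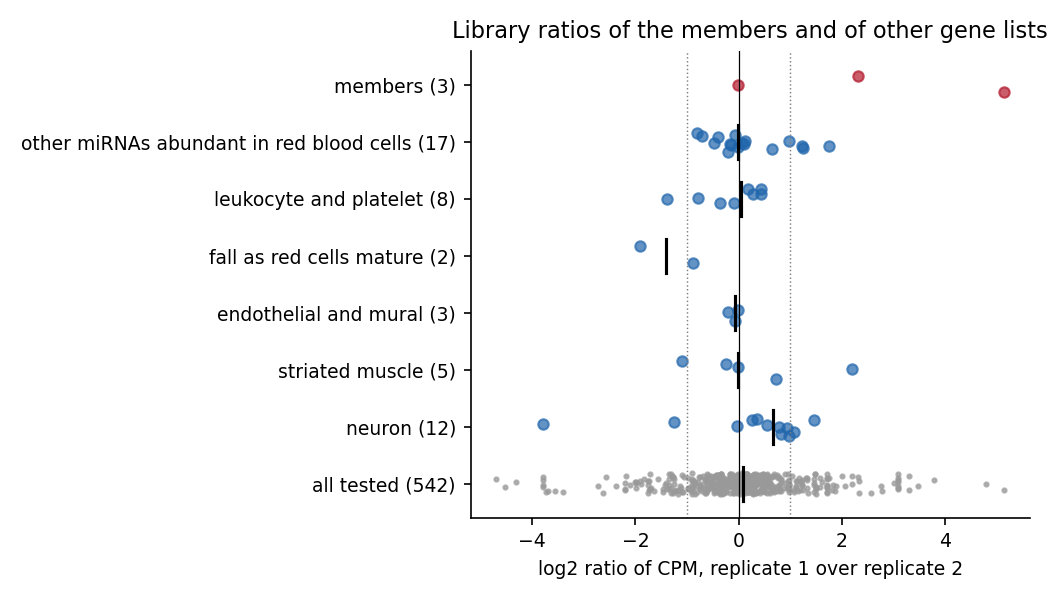
Log2 ratio of CPM, replicate 1 over replicate 2, for each tested gene, by list, with the number of such genes in brackets; black bars are list medians (none for the members) and dotted lines mark 2-fold. Mir451a at 5.14 and Mir144 at 2.31 stand to the right of all genes of the 6 other lists, whose highest ratio is 2.19, while Mir486 lies at -0.02.

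The libraries themselves differed in depth and mapping. Replicate 1 had 9089257 reads, 25.5% of them unmapped and 38.2% mapped to more than 1 place, and 2677910 sense reads assigned to miRNA genes. Replicate 2 had 7432614 reads, 42.4% unmapped and 28.3% mapped to more than 1 place, and 1750076 assigned sense reads. The part of these differences in the result for Mir451a was not tested. The labelled tissue held its neuronal miRNAs, with 12 genes summing to 44623 CPM in replicate 1 and 34870 CPM in replicate 2. They were led by Mir128-1 (18242 and 9510 CPM) and Mir137 (11808 and 8069 CPM). At 2 CPM or more in both libraries were 8 of the 12, and none was at 0 in both. The median log2 ratio of these 12 was 0.66, against 0.09 over all tested genes, and 9 of the 12 were above 0. Of the 12, 2 were at least 2-fold higher in replicate 1 (Mir124a-1 and Mir9-3) and 2 lower (Mir124a-2 and Mir132), where 25.3% of all tested genes were at least 2-fold apart in either direction. Mir124a-1 had 10 reads in replicate 1 and 2 in replicate 2, and Mir124a-2 had 0 and 4, so both rest on a few reads. The Mir124a genes are copies that make the same mature miRNA, as are the Mir9 genes. Reads matching several copies are counted for none, so low counts of these genes do not show that their miRNAs were scarce. Numbered pairs of the list such as Mir128-1 and Mir128-2 may lose shared reads in the same way, which was not checked. The sums are therefore of counted reads only. The part of the neuronal list in the result for Mir451a was not tested.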

How the data were processed

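Each of the 2 libraries came with 3 columns of raw counts per miRNA gene, as deposited by the authors. The text deposited beside them names mm10 and GENCODE M21. Not given in the sources used here were the aligner, read trimming and counting tool. That the columns hold unstranded, sense and antisense reads was read from their values. Totals leave out the 4 rows without a gene name, which hold 70.5% of the reads of replicate 1 and 76.5% of those of replicate 2.

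Sense counts were divided by their sum over the 2202 genes and given as CPM. Genes that reached 2 CPM in both libraries are detected, and those that reached it in at least 1 are the tested genes. Log2 ratios put replicate 1 on top, after adding 0.5 reads. Intervals (95%), taken from counts without added reads, are exact Poisson for CPM, exact binomial for ratios and conditional for ratios of ratios. With 1 group, no test of conditions was possible and none was run. In simulated libraries with 200 changed genes, drawn with Poisson counting error only, the ratios and intervals recovered the folds put in. The intervals assume that same error, so the simulation checks the calculation and not the spread between real libraries. Reads of CAST alleles may map less well to mm10.

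Members, lists and rules were chosen with earlier results of these data known. Named were the members, up to 4 detected genes per list by mean CPM, the 4 genes nearest each detected member in log2 ratio and its neighbours in level; others are marked, except list genes at 0 or at least 2-fold apart, named after their values were seen, and the seed relative of miR-144-3p. Alternatives used edgeR 4.0.16 (TMM) and DESeq2 1.42.0 size factors in R 4.3.3. Python 3.11.15, numpy 2.4.6, scipy 1.17.1, pandas 2.3.3 and matplotlib 3.10.9 did the rest.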

Additional observations from a re-analysis of the deposited data

How the results depend on the processing

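The log2 ratios of Mir451a, Mir144 and Mir486 stayed within their counting intervals under 4 other library totals and with 1 read added, at 5.07 to 5.47 for Mir451a and 2.24 to 2.63 for Mir144. Mir486 was at -0.09 to 0.30, the highest with all reads as the total, which moves the median of all genes by 0.32. With unstranded counts no ratio could be given for Mir451a or Mir486, which then had 0 reads, and the share of reads of Mir144 and Mir451a fell to 0.00561% in replicate 1 and 0.00110% in replicate 2. The mean of Mir451a was 20.6 CPM without replicate 1 and 737 CPM without replicate 2, and that of Mir144 10.3 and 52.3 CPM. Per 1000000 mapped reads the means were 149.8 for Mir451a, 12.4 for Mir144 and 10.3 for Mir486. The number of genes at least 2-fold apart, 137 of 542, was 243 of 744 with no minimum and 53 of 351 at 10 CPM or more, where different numbers of genes were tested. Replacing sense reads by the antisense reads of the partner left all 3 ratios between members as they were, since those reads are the same. No paired analysis was possible because there is 1 group. In replicate 2 depth limits all detected members, with 18 reads of Mir144, 36 of Mir451a and 45 of Mir486.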
